A study of Rattus norvegicus with 24 samples.

Results

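Claudins, cadherins, connexins and integrins are the transmembrane proteins by which liver cells seal, hold and signal to one another and to the matrix. The genes described here were those on the array whose symbols begin with Cldn, Cdh, Tjp, Gja, Gjb, Gjc, Itga or Itgb followed by a digit, and where several probe sets measured a gene the brightest on average was used. They came to 60 of the 13438 genes measured: 17 claudins, 2 ZO scaffolds, 13 cadherins, 10 connexins, 8 integrin alpha subunits, 7 integrin beta subunits and 3 proteins named for binding an integrin beta tail (Itgb1bp1, Itgb1bp2 and Itgb3bp), which are not integrins themselves. The integrin Itgam has no digit in its symbol and is outside this set.

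RNA was taken from the livers of 24 male Sprague Dawley rats aged 8 weeks, 1 rat per array. A rat received either 50 mg/kg of ANIT (alpha-naphthylisothiocyanate) in corn oil or the same volume of oil, 10 ml/kg, as 1 dose into the stomach. Necropsy was at 24 h, which the labels call the time of peak injury, or at 120 h, the time of injury resolution, with 6 rats in each of the 4 groups. All 24 rats, controls included, had been fasted overnight for about 18 h and had been injected with BrdU, a label of DNA synthesis, at 100 mg/kg about 2 h before necropsy, so no group was free of either. ANIT is a toxicant used to model cholestasis: it is carried into bile as a glutathione conjugate and damages the lining of the bile ducts, with hepatocyte death and neutrophil infiltration following.

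In liver, neighbouring hepatocytes enclose the bile canaliculus between them. Claudins form the paracellular barrier of the tight junction that keeps bile apart from blood, and the ZO scaffolds (Tjp genes) tie claudins to the actin cytoskeleton. Classical cadherins make the calcium-dependent contacts of the adherens junction. Connexins assemble into gap junction channels through which neighbouring cells exchange ions and small metabolites. Integrins are pairs of an alpha and a beta subunit that bind matrix proteins or counter-receptors outside the cell and talin inside it.

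The values are log2 expression levels, and the number of arrays, 6 per group, limits their precision. The array standard deviation of all log2 values ran from 1.84 to 2.09, and 6 arrays had a narrower spread than the rest: replicates 3, 4 and 5 of vehicle at 24 h and replicates 4, 5 and 6 of ANIT at 120 h. The 3'/5' difference of the beta-actin control probe sets, a measure of RNA and amplification quality, was 2.98 to 3.18 in ANIT rats at 24 h and 2.77 to 2.91 in their controls, so that these groups did not overlap on it. At 120 h the corresponding ranges, 2.48 to 2.93 and 2.76 to 2.98, overlapped. The GAPDH control probe sets went the other way at 24 h. Their 3'/5' difference was 1.55 to 1.66 in ANIT and 1.62 to 1.82 in vehicle rats, ranges that overlapped. The liver label was borne out by 10 hepatocyte markers including Alb and Apoa1, whose summed level lay between 15.52 and 15.79 on the log2 scale in every array. Of the 60 genes, 32 reached a group mean of 5.43 in at least 1 group and 28 did not. This level is the median, over all probe sets, of the mean across arrays. No gene's group mean fell to 3.10, the highest level of any nonspecific control probe set.

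ANIT changed 11 of the 60 genes at 24 h, with 6 higher and 5 lower than in vehicle rats with a Benjamini-Hochberg adjusted p under 0.05 in limma's moderated test as the call. That is 18.3% of the set, and 18.2% of all 13438 genes were called in the same comparison, 12.9% higher and 5.31% lower, so the share was near the background. At an unadjusted p under 0.05 there were 17 of the 60, where 30.9% of all genes passed. The genes that rose were the cadherin Cdh17, the claudin Cldn12, the connexins Gjb2 and Gja5, and both subunits of the fibronectin receptor, Itga5 and Itgb1. Those that fell were the claudins Cldn1 and Cldn2, the cadherin Cdh2, the connexin Gjb1 and the integrin subunit Itgb5. The median log2 difference over the 60 genes was -0.06, against 0.00 over all genes, and 4 of the 60 had all 6 ANIT rats beyond all 6 vehicle rats, against 7.87% of all genes. By 120 h only 2 of the 60 were called, both claudins.

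**Figure D1:**
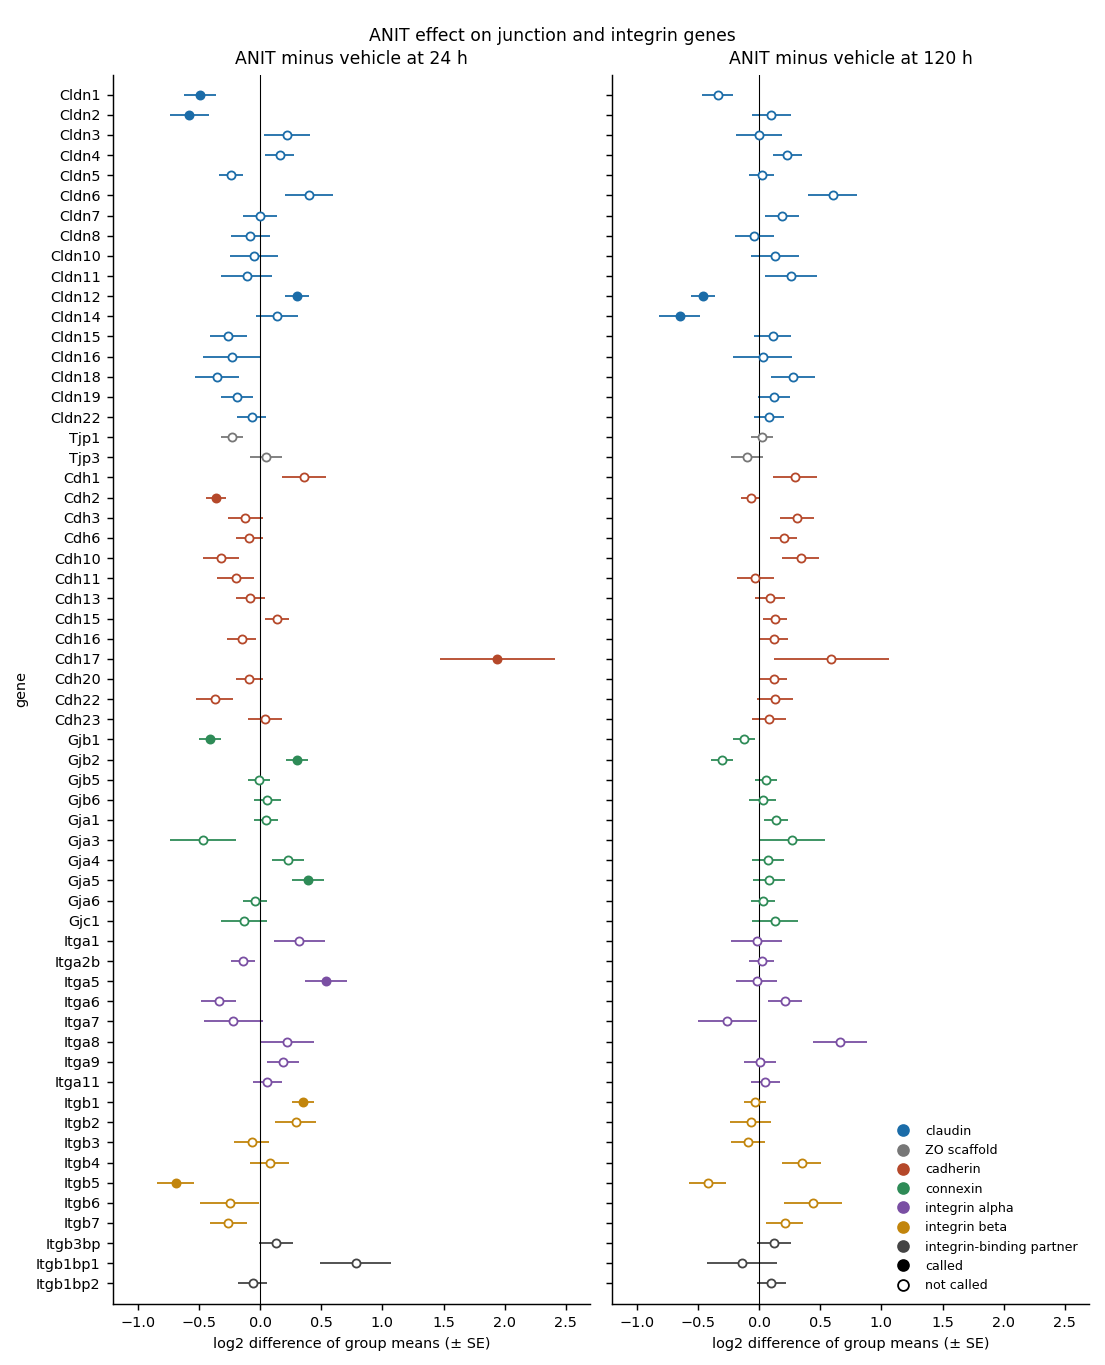
Log2 difference of group means, ANIT minus vehicle, for the 60 genes at 24 h (left) and 120 h (right). Points are differences, bars 1 standard error, colours the gene families, and filled points an adjusted p under 0.05. At 24 h 11 points are filled, and Cdh17 stands farthest from 0 at 1.94, while at 120 h only Cldn12 and Cldn14 are filled.

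Among the claudins at 24 h, 1 of 17 rose and 2 fell, 17.6% against 18.2% of all genes. Cldn1 (Entrez gene 65129), a barrier-forming claudin of the hepatocyte tight junction, had log2 levels from 9.26 to 9.57 with a median of 9.39 in vehicle rats and from 8.38 to 9.44 with a median of 8.89 after ANIT. All but 1 of the ANIT rats lay under the vehicle range. The fall was 1.41-fold (log2 difference -0.49 ± 0.13, SE; adjusted p = 0.0079). The other probe sets of Cldn1 differed by -0.31 and -0.15.

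Cldn2 (Entrez gene 300920), which forms cation and water pores in leaky epithelia, ran from 8.72 to 9.64 with a median of 9.25 in vehicle rats and from 8.55 to 8.86 with a median of 8.60 after ANIT. The ANIT rats were tightly grouped at the bottom of the vehicle range, with 4 of 6 below it. The fall was 1.49-fold (-0.58 ± 0.16; adjusted p = 0.011). Cldn12 (Entrez gene 500000), a claudin lacking the usual PDZ-binding tail, moved the other way, from 9.24 to 9.51 (median 9.35) in vehicle rats to 9.44 to 9.84 (median 9.71) after ANIT. Of the 6 ANIT rats 5 lay above the vehicle range. The rise was 1.23-fold (0.30 ± 0.10; adjusted p = 0.029). The Cldn12 call was lost without any 1 of vehicle replicates 3, 4, 5 and 6 or ANIT replicates 1, 3 and 6, where the difference was 0.27 to 0.30 and the adjusted p 0.051 to 0.077.

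The other 14 claudins differed by between -0.35 and 0.40 at 24 h with adjusted p-values from 0.094 up. They included Cldn3, the other claudin usually reported at hepatocyte junctions, at a median of 7.36 in vehicle and 7.67 in ANIT rats (0.22 ± 0.19; adjusted p = 0.46). Cldn5, the claudin of endothelial cells, had medians of 4.20 and 3.86 (-0.24 ± 0.10; adjusted p = 0.094), and it was called without vehicle replicate 2 (-0.30, adjusted p = 0.042). Cldn14 had medians of 6.50 and 6.62 (0.14 ± 0.17; adjusted p = 0.59). Cldn6, best known from embryonic epithelia, had medians of 5.71 and 6.09 (0.40 ± 0.20; adjusted p = 0.17).

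Neither ZO scaffold passed limma's test at 24 h, with 1 of them, Tjp1, at an unadjusted p under 0.05. Tjp1, which encodes ZO-1, ran from 9.45 to 9.90 (median 9.78) in vehicle rats and from 9.39 to 9.64 (median 9.52) in ANIT rats, and these ranges overlapped (-0.23 ± 0.09; adjusted p = 0.075). It was called without vehicle replicate 5 (-0.29, adjusted p = 0.02), the lowest rat of its group, and under 2 of the 8 alternative settings, with the hybridisation control level as a covariate (-0.30, adjusted p = 0.012) and after quantile normalization (-0.35, adjusted p = 0.0016). Tjp3, which encodes ZO-3, differed by 0.05 ± 0.13 (adjusted p = 0.84).

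Among 22 other measured tight junction genes, 4 rose and 2 fell at 24 h, 27.3% against 18.2% of all genes. Their median difference was 0.17, against 0.00 over all genes. Mpdz, a multi-PDZ scaffold that binds claudins, lay between 9.05 and 9.55 in vehicle rats and between 8.07 and 8.90 after ANIT, with no overlap (-0.84 ± 0.13; adjusted p = 2.7e-05). Pard6b, a polarity protein of the apical complex, was above all its controls after ANIT (0.69 ± 0.14; adjusted p = 6.3e-04). Cxadr, an immunoglobulin-like adhesion receptor at tight junctions, rose 2.06-fold (1.05 ± 0.25; adjusted p = 0.0039). Cldnd1, a claudin-like membrane protein, rose 1.34-fold (0.43 ± 0.11; adjusted p = 0.005). Mpdz was also the only one of the 22 called at 120 h, where it was again below all its controls (-0.58 ± 0.13; adjusted p = 0.013).

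Of 13 cadherins at 24 h, 1 rose and 1 fell, 15.4% against 18.2% of all genes. In both the ANIT and vehicle rats did not overlap, a pattern seen in 7.87% of all genes. Cdh17 (Entrez gene 117048), the liver-intestine cadherin, showed the largest difference of the 60 genes. Its log2 levels ran from 5.23 to 7.27 with a median of 6.39 in vehicle rats and from 7.43 to 9.52 with a median of 8.01 after ANIT. Every ANIT rat exceeded every vehicle rat of the same time. The rise was 3.84-fold (1.94 ± 0.47; adjusted p = 0.0043). It was not called with the beta-actin 3'/5' difference as a covariate (1.27, adjusted p = 0.36) or without the 6 narrow arrays (1.67, adjusted p = 0.094). Vehicle rats at 120 h spread more widely on this gene, from 4.95 to 8.40, and that range took in all 6 vehicle levels and 4 of the 6 ANIT levels of 24 h.

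Cdh2 (Entrez gene 83501), N-cadherin, which hepatocytes carry together with E-cadherin, ran from 10.47 to 10.79 with a median of 10.68 in vehicle rats and from 10.10 to 10.39 with a median of 10.31 after ANIT. The groups lay apart by a small margin. The fall was 1.29-fold (-0.36 ± 0.08; adjusted p = 0.0011), and a dimmer probe set of the gene differed by -0.29. Cdh1, E-cadherin, had medians of 10.06 in vehicle and 10.56 in ANIT rats, with 1 ANIT rat under the whole vehicle range (0.36 ± 0.18; adjusted p = 0.18). Without that rat, replicate 4, the difference was 0.51 and the adjusted p 0.033.

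The other 10 cadherins, which include the endothelial and mesenchymal Cdh11 and Cdh13 and the kidney-type Cdh16, differed by between -0.37 and 0.14, and none passed the test. Cdh22, at -0.37, was called without vehicle replicate 1 or ANIT replicate 4 (-0.49 and -0.44; adjusted p = 0.01 and 0.045), and Cdh10 without vehicle replicate 1 (-0.42, adjusted p = 0.037). Among 22 measured partners at adherens junctions and desmosomes, 2 rose and 2 fell at 24 h. That is 18.2%, the same share as that of all genes. Dsc2, a desmosomal cadherin outside the Cdh symbols, rose 2.05-fold from 10.07 to 10.52 in vehicle rats to 11.13 to 11.67 after ANIT (1.04 ± 0.11; adjusted p = 2.1e-07). Nectin2, an adherens junction adhesion molecule, fell 1.62-fold (-0.69 ± 0.15; adjusted p = 0.0012). Lima1, an actin-binding protein linked to alpha-catenin, fell 1.42-fold (-0.50 ± 0.13; adjusted p = 0.0069). Ctnna1, alpha-catenin itself, rose 1.28-fold (0.36 ± 0.10; adjusted p = 0.011).

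The main gap junction pair of the hepatocyte, Gjb1 (connexin 32) and Gjb2 (connexin 26), moved in opposite directions at 24 h. Their promoters are shown because the direction differed between them: each line gives 250 bases upstream of the start site from RefSeq on build GRCr8, written 5' to 3' on the strand of the gene, with capitals marking matches to the motifs searched. Gjb1 lies at chrX:70541595-70541844 on the plus strand and Gjb2 at chr15:35381954-35382203 on the minus strand.
Gjb1: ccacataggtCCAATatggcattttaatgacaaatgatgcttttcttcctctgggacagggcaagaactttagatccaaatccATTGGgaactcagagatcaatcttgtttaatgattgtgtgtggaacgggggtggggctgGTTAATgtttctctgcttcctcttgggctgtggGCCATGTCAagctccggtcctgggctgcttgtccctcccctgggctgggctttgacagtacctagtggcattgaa
Gjb2: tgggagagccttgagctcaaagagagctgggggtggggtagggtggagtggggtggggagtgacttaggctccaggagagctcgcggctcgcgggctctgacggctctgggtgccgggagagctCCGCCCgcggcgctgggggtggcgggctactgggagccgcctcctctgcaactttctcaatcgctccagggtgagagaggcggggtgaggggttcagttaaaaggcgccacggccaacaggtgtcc
The Gjb1 window is 49.2% G and C. It holds the letters CCAAT at 240 bases before the start and on the opposite strand at 167, GTTAAT, part of the HNF1 motif, at 108, and TGACNNNGC, the antioxidant response core, on the opposite strand at 75. The Gjb2 window is 67.2% G and C and its only match is a GC box, GGGCGG, on the opposite strand at 126. Over all 33469 promoters of this length, searched on both strands for 7 motifs, 34% held CCAAT, 6.45% GTTAAT, 10.1% TGACNNNGC and 30.5% GGGCGG. A match is a description of these letters and not a binding site.

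Gjb1 (Entrez gene 29584) ran from 9.75 to 10.20 with a median of 10.03 in vehicle rats and from 9.39 to 9.72 with a median of 9.57 after ANIT. No ANIT rat reached the vehicle range. The fall was 1.33-fold (-0.41 ± 0.09; adjusted p = 0.0024). Gjb2 (Entrez gene 394266) ran from 10.29 to 10.60 with a median of 10.57 in vehicle rats and from 10.60 to 11.01 with a median of 10.85 after ANIT. Of the ANIT rats 5 lay above the vehicle range and the lowest touched its top. The rise was 1.23-fold (0.30 ± 0.09; adjusted p = 0.022), a call that was lost without vehicle replicate 2, ANIT replicate 1 or ANIT replicate 6 (0.25 to 0.27; adjusted p = 0.063 to 0.067).

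Gja5 (Entrez gene 50563), connexin 40 of arterial endothelium, ran from 4.74 to 5.28 with a median of 5.18 in vehicle rats and from 5.03 to 6.00 with a median of 5.47 after ANIT. Of the ANIT rats 5 were above the vehicle range. The rise was 1.31-fold (0.39 ± 0.13; adjusted p = 0.039), but a second probe set of Gja5 differed by -0.12. The call was also lost without any 1 of vehicle replicates 1, 2, 5 and 6 or ANIT replicates 3, 5 and 6 (0.29 to 0.40; adjusted p = 0.051 to 0.13).

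The other 7 connexins differed by between -0.47 and 0.23 and none was called. The lowest, Gja3, was called without vehicle replicate 1 (-0.69, adjusted p = 0.039). Gja1, connexin 43 of non-parenchymal cells, had medians of 10.17 in vehicle and 10.32 in ANIT rats (0.05 ± 0.10; adjusted p = 0.76). Gja4, connexin 37 of endothelium, had medians of 6.16 and 6.31 (0.23 ± 0.13; adjusted p = 0.23). None of the 5 measured pannexins and other connexin partners was called at either time, with 1 of them at an unadjusted p under 0.05 at 24 h and 0 at 120 h.

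Among 15 integrin subunits, 2 rose and 1 fell at 24 h, 20% against 18.2% of all genes. The pair that rose, Itga5 and Itgb1, together form the main fibronectin receptor, and their promoters are shown as the 2 that moved together, in the same form as above. Itga5 lies at chr7:136381306-136381555 on the minus strand and Itgb1 at chr19:73602027-73602276 on the plus strand.
Itga5: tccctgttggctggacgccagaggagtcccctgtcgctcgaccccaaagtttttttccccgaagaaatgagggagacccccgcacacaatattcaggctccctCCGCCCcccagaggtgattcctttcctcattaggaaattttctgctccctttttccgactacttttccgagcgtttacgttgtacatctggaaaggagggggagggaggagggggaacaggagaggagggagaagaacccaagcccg
Itgb1: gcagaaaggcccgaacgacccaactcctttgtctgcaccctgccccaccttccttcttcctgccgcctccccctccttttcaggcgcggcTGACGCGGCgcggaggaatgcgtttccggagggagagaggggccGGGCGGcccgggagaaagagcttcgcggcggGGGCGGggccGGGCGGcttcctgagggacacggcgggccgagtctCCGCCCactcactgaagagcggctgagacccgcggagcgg
The Itga5 window is 55.6% G and C with 1 GC box, on the opposite strand at 147 bases before the start. The Itgb1 window is 71.2% G and C. Its GC boxes begin at 116, 85 and 75 bases before the start and, on the opposite strand, at 40, and it has an antioxidant response core at 160. Promoters were matched for 43 of the 60 genes, 1 of which had a pair of starts, and 50% of those 44 windows held a GC box, with a median G and C content of 57.2% against 51.2% over all promoters.

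Itga5 (Entrez gene 315346) ran from 6.90 to 7.88 with a median of 7.38 in vehicle rats and from 7.51 to 8.49 with a median of 7.93 after ANIT, and 3 ANIT rats exceeded the vehicle range. The rise was 1.45-fold (0.54 ± 0.17; adjusted p = 0.027). It was not called without any 1 of vehicle replicates 3, 5 and 6 or ANIT replicates 1, 3 and 6 (0.43 to 0.52; adjusted p = 0.051 to 0.087). Itgb1 (Entrez gene 24511), the beta subunit shared by most matrix-binding integrins, ran from 8.71 to 9.23 with a median of 9.03 in vehicle rats and from 9.18 to 9.50 with a median of 9.39 after ANIT. Of its ANIT rats 4 lay above the vehicle range. The rise was 1.27-fold (0.35 ± 0.09; adjusted p = 0.01), with a second probe set at 0.20.

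Itgb5 (Entrez gene 257645), which pairs with the alpha V subunit and binds vitronectin, fell furthest of the 60 genes. It ran from 7.22 to 7.93 with a median of 7.67 in vehicle rats and from 6.55 to 7.20 with a median of 7.05 after ANIT, without overlap. The fall was 1.61-fold (-0.69 ± 0.15; adjusted p = 0.0022), and 3 other probe sets of the gene differed by -0.25, -0.42 and -0.17.

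The remaining 12 integrin subunits did not pass the test at 24 h. Itga6, a laminin-binding subunit, had 5 of 6 ANIT rats under the vehicle range, with medians of 8.25 and 8.03 (-0.34 ± 0.14; adjusted p = 0.099), and it was called under 4 of the 8 alternative settings. These were the control level covariate (-0.48, adjusted p = 0.0074), quantile normalization (-0.54, adjusted p = 7e-04), means over probe sets (-0.29, adjusted p = 0.041) and the fit without the 6 narrow arrays (-0.46, adjusted p = 0.039). Itgb2, the beta subunit of leukocyte integrins, had medians of 6.88 in vehicle and 7.07 in ANIT rats (0.29 ± 0.17; adjusted p = 0.26). Itga1, a collagen-binding subunit, had medians of 6.79 and 7.17 (0.32 ± 0.21; adjusted p = 0.32). Itga9, which binds tenascin and osteopontin, differed by 0.19 ± 0.13, Itgb3 of the vitronectin receptor by -0.07 ± 0.14, and the epithelial Itgb6 by -0.25 ± 0.24, with adjusted p-values from 0.35 to 0.76. Itga7 (-0.22 ± 0.24; adjusted p = 0.55) was called under 1 of 7 alternative settings, the control level covariate (adjusted p = 0.016). Of the binding partners, Itgb1bp1 (ICAP-1, which binds the Itgb1 tail) had a large but scattered difference, from 4.71 to 6.74 in vehicle and from 6.11 to 7.16 in ANIT rats (0.78 ± 0.29; adjusted p = 0.062), and its second probe set differed by -0.10. It was called without vehicle replicate 1 or 6 or ANIT replicate 2 or 4 (0.87 to 0.95; adjusted p = 0.016 to 0.0496). It was also called under 2 of the 8 alternative settings, after quantile normalization and with dim genes left out.

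Among the ligands and cytoplasmic adaptors of integrins, outside the symbol rule, calls went in both directions and their share was near the background. Of 19 measured ligands 3 rose and 1 fell at 24 h, 21.1% against 18.2% of all genes. Icam1, the counter-receptor of leukocyte integrins, rose 2.60-fold, from 6.45 to 7.02 in vehicle rats to 7.33 to 8.78 after ANIT (1.38 ± 0.22; adjusted p = 5.6e-05). Fn1, fibronectin, the ligand of the Itga5 and Itgb1 pair, was above all its controls (0.36 ± 0.08; adjusted p = 0.0017). The laminin chains divided, with Lama3 down (-0.60 ± 0.14; adjusted p = 0.0032) and Lama5 up (0.46 ± 0.13; adjusted p = 0.012).

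Of 25 adaptors 3 rose and 2 fell at 24 h, 20% against 18.2% of all genes. Zyx, zyxin of focal adhesions, rose 2.23-fold with no overlap between groups (1.16 ± 0.19; adjusted p = 9.4e-05). Tln1, talin, which links beta subunits to actin, rose 1.44-fold (0.53 ± 0.15; adjusted p = 0.016). Kank2, a talin-binding protein, fell 1.55-fold (-0.63 ± 0.15; adjusted p = 0.0032), and Actn4, an alpha-actinin, fell 1.25-fold (-0.32 ± 0.10; adjusted p = 0.02). None of 4 measured integrins with letter names, such as Itgav, was called at either time, with 0 at an unadjusted p under 0.05 at 24 h and 0 at 120 h.

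**Figure D2:**
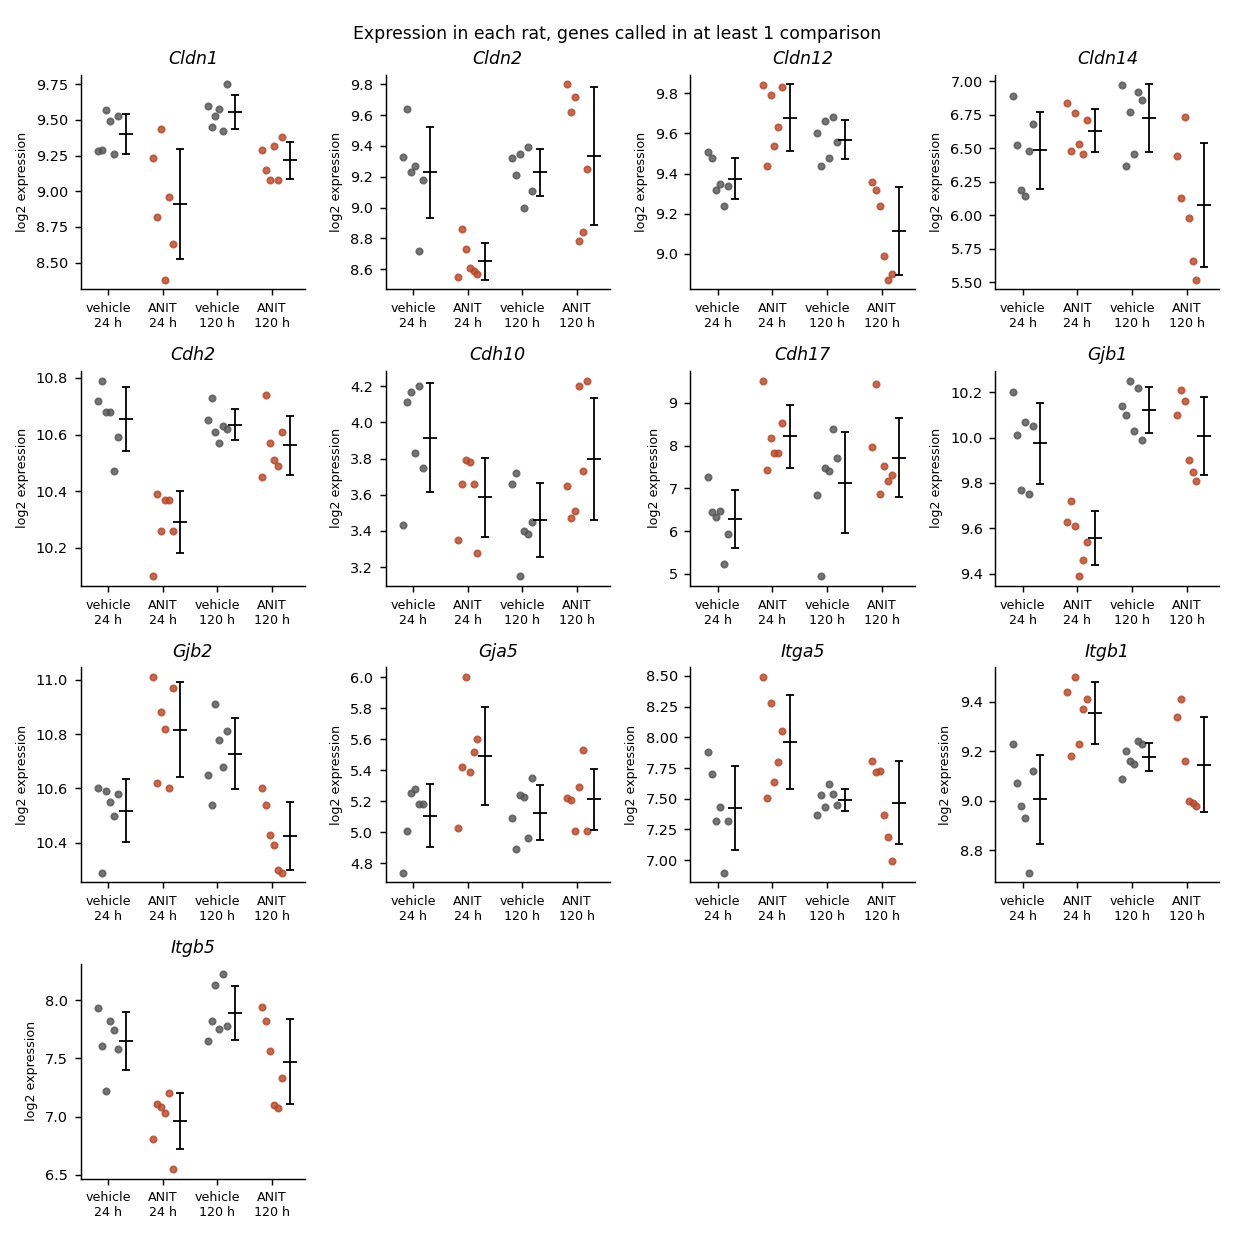
Log2 expression in each rat for the 13 genes called in at least 1 comparison, with the group mean and SD beside the points (6 rats a group, vehicle in grey, ANIT in red-brown). At 24 h the ANIT and vehicle points of Cdh2, Cdh17, Gjb1 and Itgb5 do not overlap; at 120 h those of Cldn1 and Cldn12 do not. Each panel has its own axis, which does not start at 0.

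Other measures of these livers moved along with the 24 h changes, and their part in them was not tested. With the beta-actin 3'/5' difference as a covariate, 4 of the 11 genes were called at 24 h (Cldn2, Cdh2, Gjb1 and Itgb5), all of them lower, with differences of -0.94, -0.37, -0.52 and -1.10, and none was higher. Cldn1, also lower, lost its call. The GAPDH 3'/5' difference, which ran the other way, was not used as a covariate. The 24 h groups did not overlap on the beta-actin difference, so the fit cannot cleanly separate it from ANIT. Over all genes the calls went from 2451 to 907, or 18.2% to 6.75%. The 6 that rose kept their sign, with adjusted p-values from 0.26 for Gja5 to 0.51 for Gjb2. Without the 6 narrow arrays, which leaves 3 vehicle rats at 24 h, 7 genes were called, of which 5 were among the 11 (Cldn2, Cdh2, Gjb1, Itgb5 and Gja5). Of all genes 11.6% were called in that fit. Cdh17 (1.67, adjusted p = 0.094), Cldn1 (-0.46, 0.094), Cldn12 (0.23, 0.16), Gjb2 (0.33, 0.075), Itga5 (0.33, 0.27) and Itgb1 (0.21, 0.16) were then not called. The other 2 of the 7 were Itga6 and Cldn6 (0.76, adjusted p = 0.037), and Cldn6 was also called with the hybridisation control level as a covariate (0.61, adjusted p = 0.02). Cdh2, Gjb1 and Itgb5 were called under all 8 alternatives and in all 12 fits with 1 rat left out.

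Cldn12, Gjb2 and Itga5 were not called with the hybridisation control level as a covariate (adjusted p = 0.10, 0.065 and 0.11), and Cldn2 was not with every array set to a common median (adjusted p = 0.058), where Gjb1 was just under the threshold (-0.34, adjusted p = 0.0499). With probe sets of a gene averaged, Cldn1 and Gja5 were not called (-0.32 and 0.13; adjusted p = 0.19 and 0.38) and Itgb5 differed by -0.38. With only the 2 groups compared in the fit, Gjb2, Gja5 and Itga5 were not called (adjusted p = 0.054, 0.08 and 0.059). Every one of the 11 kept its sign in each of these.

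**Figure D3:**
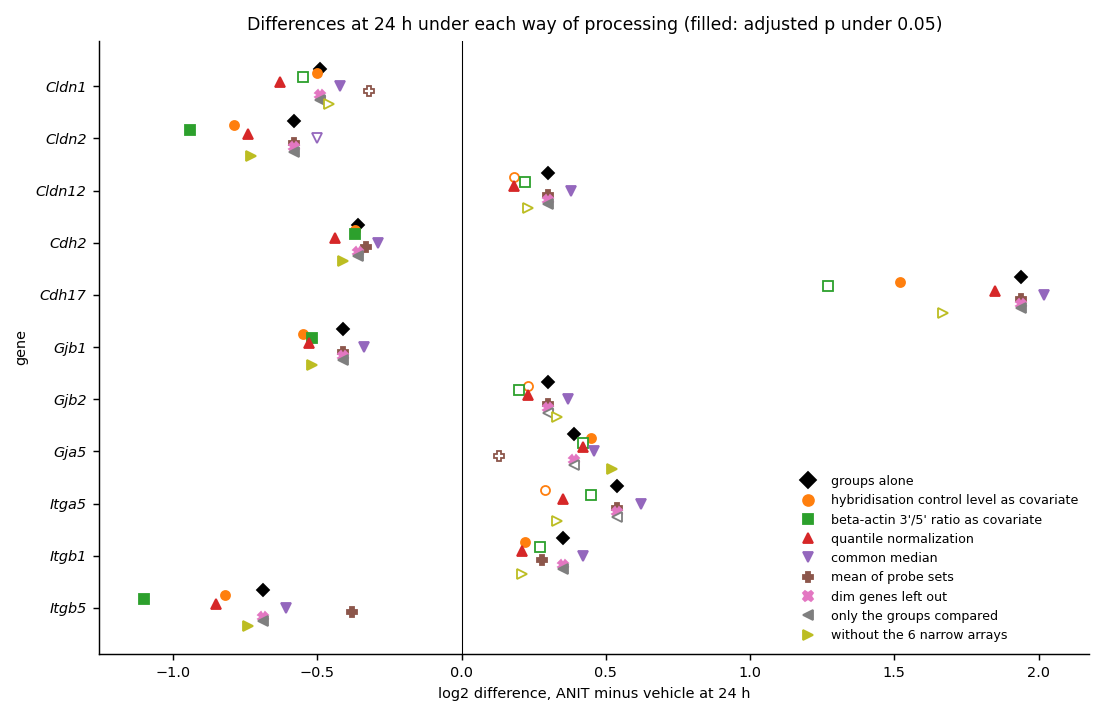
Log2 difference at 24 h, ANIT minus vehicle, for the 11 called genes under the model with groups alone (diamonds) and 8 alternatives. Filled symbols have an adjusted p under 0.05; every symbol of a gene lies on the same side of 0. Cdh2, Gjb1 and Itgb5 are filled throughout, and the rising genes are open with the beta-actin covariate.

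Markers of infiltrating and resident cells were also measured in whole liver, where fewer cells of a type and less RNA per cell cannot be told apart. At 24 h 18.2% of all genes were called, 12.9% higher and 5.31% lower. The stellate (20%) and cholangiocyte (12.5%) lists were near 18.2%, as was the lymphocyte list (22.2%) with directions pooled. Both lymphocyte calls were lower, however, where 5.31% of all genes were. All 9 lymphocyte and NK cell markers were lower after ANIT, by -0.56 to -0.04 with a median of -0.25. Above 18.2% were the neutrophil (57.1%), hepatocyte (40%), macrophage (37.5%), endothelial (33.3%) and acinar (33.3%) lists. Of 7 neutrophil markers 4 rose at 24 h, with a summed log2 level of 7.51 to 8.72 in vehicle and 10.37 to 12.02 in ANIT rats. A sum adds unlogged levels, so the brightest markers of a list weigh most in it. The 7 differed by between -0.07 and 5.33, with a median of 0.84, and the list includes Lcn2, which is also an acute phase gene. Of 8 monocyte and macrophage markers 3 rose (11.75 to 11.88 and 11.86 to 12.07). Of 10 hepatocyte markers 2 rose and 2 fell, and their summed level, 15.71 to 15.79 in vehicle and 15.52 to 15.68 in ANIT rats, did not overlap. Of 9 endothelial markers 1 rose and 2 fell, with summed levels that overlapped (11.66 to 12.23 and 11.72 to 11.92), and of 10 stellate cell and fibroblast markers 1 rose and 1 fell (11.19 to 11.52 and 10.99 to 11.63). Of 8 cholangiocyte markers 1, Prom1, fell (8.30 to 8.56 and 8.26 to 8.47), and of 9 lymphocyte and NK cell markers 2 fell (7.98 to 8.29 and 7.75 to 8.02). Of 6 pancreatic acinar markers 1 rose and 1 fell (8.39 to 8.82 and 7.80 to 8.26, without overlap), while none of the 4 platelet or 2 mesothelial markers was called by limma, with 2 and 0 at an unadjusted p under 0.05. Which share of the junction and integrin changes moved with these cells was not tested.

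At 120 h, 2 of the 60 genes were called, 3.33% against 2.02% of all genes, and both were claudins that fell, where 1.51% of all genes did. The median difference over the 60 was 0.08, against -0.01 over all genes. Cldn12 ran from 9.44 to 9.68 with a median of 9.58 in vehicle rats and from 8.87 to 9.36 with a median of 9.12 after ANIT. All 6 ANIT rats lay below the vehicle range. The fall was 1.37-fold (-0.46 ± 0.10; adjusted p = 0.011), and it was not called without the 6 narrow arrays (-0.27, adjusted p = 0.22), 3 of which are ANIT rats of this time.

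Cldn14 (Entrez gene 304073), a barrier claudin of liver, kidney and the inner ear, ran from 6.37 to 6.97 with a median of 6.82 in vehicle rats and from 5.52 to 6.73 with a median of 6.06 after ANIT. The ranges overlapped, and the ANIT rats were spread over most of their own range. The fall was 1.57-fold (-0.65 ± 0.17; adjusted p = 0.043). It was not called without any 1 of vehicle replicates 1, 3, 5 and 6 or ANIT replicates 2, 4, 5 and 6 (-0.54 to -0.66; adjusted p = 0.054 to 0.13). Without the 6 narrow arrays the Cldn14 difference was -0.29 (adjusted p = 0.44).

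Cldn1 was the other gene of the 60 whose ANIT and vehicle rats did not overlap at 120 h, from 9.42 to 9.75 in vehicle and 9.08 to 9.38 in ANIT rats, a pattern seen in 2.14% of all genes, but the test did not call it (-0.34 ± 0.13; adjusted p = 0.21). Its other probe sets differed by -0.32 and -0.59 at this time. Cldn2 had vehicle and ANIT medians of 9.27 and 9.43 and was more scattered after ANIT, from 8.78 to 9.80 (0.10 ± 0.16; adjusted p = 0.80). Without the 6 narrow arrays it was called as higher (0.48). Gjb2 had medians of 10.73 and 10.41 (-0.30 ± 0.09; adjusted p = 0.085; with the control level covariate -0.27 and 0.048, which is under the threshold) and Gjb1 of 10.12 and 10.00 (-0.12 ± 0.09; adjusted p = 0.59). Cdh17 had medians of 7.44 and 7.42 (0.59 ± 0.47; adjusted p = 0.60). Cdh2 differed by -0.07, but its dimmer probe set by -0.24.

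No connexin, cadherin or integrin was called by limma at 120 h with groups alone in the model, and an unadjusted p under 0.05 was reached by 1 of 10 connexins, 2 of 13 cadherins and 3 of 15 integrin subunits, where 13.9% of all genes reached it. Among integrins the differences ran from -0.42 for Itgb5 (adjusted p = 0.18) to 0.66 for Itga8 (adjusted p = 0.13), a subunit of stellate and smooth muscle cells. Itga8 ran from 4.74 to 5.87 in vehicle and 5.28 to 6.53 in ANIT rats. It was called under 3 of 8 alternative settings, with the control level covariate (0.76, adjusted p = 0.018), with means over probe sets (0.41, adjusted p = 0.045) and without the 6 narrow arrays (0.97, adjusted p = 0.046). Itga5 and Itgb1, raised at 24 h, differed by -0.02 and -0.03. Of the partner lists, apart from Mpdz, only the laminin chain Lama5 was called at 120 h, 1.50-fold higher (0.58 ± 0.13; adjusted p = 0.013). It ran from 4.52 to 5.17 in vehicle and from 5.15 to 5.68 in ANIT rats. None of 22 adherens junction and desmosome partners and none of 25 adaptors was called, with 3 and 1 at an unadjusted p under 0.05.

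At this time 3 of 8 cholangiocyte markers were higher after ANIT, Krt19 by 0.73, Prom1 by 0.66 and Cftr by 0.49, and the summed level of the 8 lay between 8.71 and 9.25, above the 8.29 to 8.61 of vehicle rats. The 3 called were 37.5% of the list, where 2.02% of all genes were called. The neutrophil and macrophage lists each had 1 marker called, with summed levels of 8.21 to 9.42 and 11.87 to 12.26 in ANIT rats against 7.61 to 8.14 and 11.64 to 11.96 in vehicle rats. Single neutrophil markers, Lcn2 in their list, differed by between -0.05 and 1.72, with a median of 0.22. The stellate and fibroblast sum was 11.48 to 11.84 in ANIT and 11.17 to 11.58 in vehicle rats with 0 of 10 markers called by limma and 5 at an unadjusted p under 0.05. No hepatocyte, endothelial, lymphocyte, platelet, mesothelial or acinar marker was called at 120 h, with 3, 0, 1, 0, 0 and 1 at an unadjusted p under 0.05. The part of any of these in the junction genes was not tested.

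The ANIT effect differed between the times for 5 of the 60 genes, 8.33% against 14.3% of all genes, and 15 of the 60 had an unadjusted p under 0.05, where 29.9% of all genes did. The effects share no rats, and the test is of the difference of the effects itself. Cldn12 rose at 24 h and fell at 120 h, and the difference of its effects was -0.76 ± 0.14 (adjusted p = 4.9e-04). It was called in all 24 fits with 1 rat left out and not with the beta-actin covariate (-0.66, adjusted p = 0.059). Gjb2 likewise went from 0.30 to -0.30, a difference of -0.60 ± 0.13 (adjusted p = 0.0024), also called in all 24 fits. It was not called with the beta-actin covariate (-0.48, adjusted p = 0.17) or without the 6 narrow arrays (-0.53, adjusted p = 0.056). Of the vehicle groups, that at 120 h was the higher for both genes, by 0.20 for Cldn12 and 0.21 for Gjb2.

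The effect on Cldn14 went from 0.14 to -0.65 (-0.79 ± 0.24; adjusted p = 0.028) and that on Cldn2 from -0.58 to 0.10 (0.68 ± 0.22; adjusted p = 0.041). The call on Cldn14 was lost without any 1 of vehicle replicates 3 and 4 or ANIT replicate 1 at 24 h or ANIT replicates 5 and 6 at 120 h (-0.68 to -0.75; adjusted p = 0.052 to 0.055). The call on Cldn2 held in 7 of the 24 fits with 1 rat left out, those without vehicle replicate 1 or 5 or ANIT replicate 2 of 24 h and without vehicle replicate 1 or 5 or ANIT replicate 4 or 5 of 120 h. In the others the difference was 0.59 to 0.71 and the adjusted p 0.0502 to 0.075. Without the 6 narrow arrays the Cldn2 difference was 1.22 (adjusted p = 2.4e-04) and the Cldn14 difference -0.22 (adjusted p = 0.69). The Cldn14 difference was called in 4 of 7 alternatives, and was also lost with the control level or the beta-actin covariate. That of Cldn2 was called in 6 of 7, and was lost with a common array median (adjusted p = 0.14).

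Cdh10 (0.66 ± 0.21; adjusted p = 0.038), a cadherin of the nervous system, was dim in every group, with group means of 3.46 to 3.91, and the vehicle groups themselves differed by -0.45 between the times. Its call held in 11 of 24 fits with 1 rat left out, those without vehicle replicate 1 or 6 or ANIT replicate 2, 3, 4 or 5 of 24 h and without vehicle replicate 1 or 2 or ANIT replicate 1, 2 or 3 of 120 h. In the others the adjusted p was 0.0504 to 0.077. It was not called with the control level covariate (0.33, adjusted p = 0.16), the beta-actin covariate (0.35, adjusted p = 0.67) or without the 6 narrow arrays (0.25, adjusted p = 0.63). For Itgb1 and Itga5, called at 24 h and near 0 at 120 h, the difference of effects did not pass the test (-0.38 ± 0.13 and -0.56 ± 0.24; adjusted p = 0.057 and 0.12). The same held for Cdh17 (-1.35 ± 0.66; adjusted p = 0.17), Cdh2 (0.29 ± 0.11; adjusted p = 0.068) and Gjb1 (0.29 ± 0.13; adjusted p = 0.14). For some of these genes the answer turned on the setting. The Gjb1 difference was called in 3 of 7 alternatives, with the control level covariate (0.48, adjusted p = 0.0012), after quantile normalization (0.48, adjusted p = 4.6e-04) and without the 6 narrow arrays (0.56, adjusted p = 0.014). The Cdh2 difference was called in 2 of 7, after quantile normalization (0.41, adjusted p = 0.0095) and with dim genes left out (0.29, adjusted p = 0.047), and in 2 of 24 fits with 1 rat left out. In the dimmer probe set of Cdh2 the difference of effects was only 0.05. The Itgb1 difference was called in 1 of 7, with dim genes left out (-0.38, adjusted p = 0.04), and in 5 of the 24 fits (-0.40 to -0.43; adjusted p = 0.024 to 0.046). Those of Itga5 (-0.65, adjusted p = 0.047) and Cdh17 (-1.79, adjusted p = 0.037) were each called in 1 fit, without vehicle replicate 1 of 24 h and without vehicle replicate 2 of 120 h.

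Itga6, called at neither time, had effects of -0.34 and 0.21 and a difference between the times of 0.55 ± 0.20 (adjusted p = 0.064). This difference was called in 5 of 7 alternatives, with the control level covariate (0.76, adjusted p = 0.0055), after quantile normalization (0.90, adjusted p = 2.8e-04), with means over probe sets (0.45, adjusted p = 0.033), with dim genes left out (0.55, adjusted p = 0.047) and without the 6 narrow arrays (0.93, adjusted p = 0.0082).

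**Figure D4:**
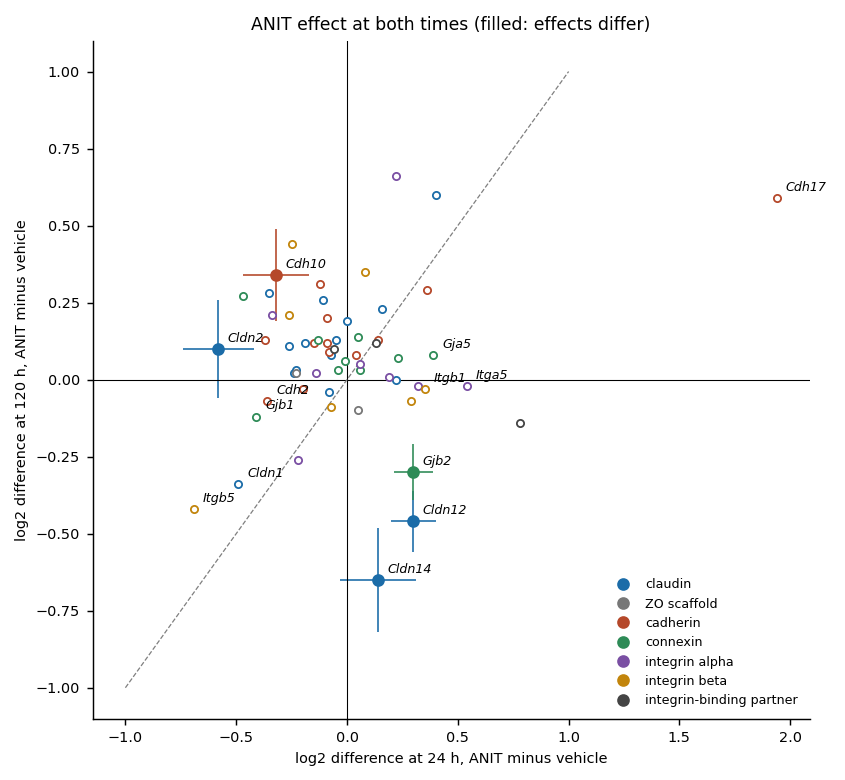
ANIT minus vehicle log2 difference at 24 h (horizontal) against 120 h (vertical) for the 60 genes. Filled points with bars of 1 standard error are the 5 genes whose effects differed between the times at an adjusted p under 0.05; names mark genes called in any comparison, and the dashed line is equality. Cldn12, Gjb2 and Cldn14 lie right of and below the line, Cldn2 and Cdh10 left of and above it.

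Vehicle rats at 120 h and at 24 h did not differ in any of the 60 genes in limma's test, against 0.00744% of all genes called, and 6 of the 60 had an unadjusted p under 0.05 where 12.2% of all genes did. The closest to a call was Cdh10, and the widest difference was that of Cdh17 (0.85 ± 0.47; adjusted p = 0.45), from medians of 6.39 at 24 h to 7.44 at 120 h. With vehicle replicate 1 of 24 h left out, 1 gene of the 60 was called, Cdh22 (-0.56, adjusted p = 0.044).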

How the data were processed

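RNA from each of 24 rat livers was hybridised to a one-colour array. The table deposited by the authors holds log2 expression values for 31139 probe sets, made with RMA and Partek per the submitters' processing notes. For both, version and settings were not given in the sources used here. No rescaling was applied. Symbols come from the annotation of the platform, which can be old, and 19068 probe sets carried exactly 1. Of several probe sets for a gene, the brightest was used, which left 13438 genes. Per the labels, RNA was amplified before hybridisation, so 3' bias can enter the values.

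Group means were fitted over all genes with limma 3.58.1 (lmFit, eBayes) in R 4.3.3, with 4 contrasts and Benjamini-Hochberg adjustment across the 13438 genes. Figures used Python 3.11.15 and matplotlib 3.10.9. The fit was tested on simulated data. The members, the gene lists and the tests were chosen with earlier results of these data known. Full values are given for members called in any comparison, those whose groups did not overlap, and further members listed in the naming rule, where they were measured. From each partner list the rule takes up to 4 called genes with the smallest p at each time. Cldn6, Cdh22, Itga7, Itga8 and Itgb1bp1, and single members that a left-out rat or array set changed, were chosen after their values were seen.

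The alternatives were the level of 9 hybridisation control probe sets or the beta-actin 3'/5' difference as a covariate, quantile normalization, a common array median, means over probe sets, leaving out genes under 5.43 in every group, only the groups compared, leaving out 6 arrays of narrow spread, and leaving out each rat. Promoters came from RefSeq on build GRCr8.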

Additional observations from a re-analysis of the deposited data

Results flagged for a closer look

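Of 240 sets of 6 rats (60 genes in 4 groups), 14 held a rat whose gap to the next, as a share of the group's range, exceeded 0.625, where chance gives about 1 in 20, or 12.0 sets. Of these, 7 were in vehicle rats at 24 h, in replicate 1 for Cdh15 (0.78), Cdh22 (0.65), Itga7 (0.63) and Itga9 (0.75), in replicate 2 for Gjb2 (0.70), whose lowest rat stood at 10.29 against 10.50 to 10.60. The remaining 2 of the 7 were Itgb2 (0.72) and Tjp1 (0.68) in replicate 5. In vehicle rats at 120 h the gaps were those of Cdh16 in replicate 5 (0.71) and Tjp1 in replicate 6 (0.63). In ANIT rats at 24 h they were those of Cldn22 (0.82) and Itga9 (0.75) in replicate 4 and Itga6 in replicate 2 (0.65), and at 120 h those of Cdh11 in replicate 2 (0.83) and Cdh15 in replicate 1 (0.63).

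The ANIT effect differed between 120 h and 24 h, by a test of that difference in limma, for Cldn12 (-0.76), Gjb2 (-0.60), Cldn14 (-0.79), Cldn2 (0.68) and Cdh10 (0.66), all on the log2 scale.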

How the results depend on the processing

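No gene of the 60 that was called reversed its sign under any alternative. Of 5348 alternative values of single genes, 5182 stayed on the same side of the threshold, 103 lost a call and 63 gained one. At 24 h, 11 genes were called, against 4 with the beta-actin covariate and 7 without the 6 narrow arrays. The share of all genes called moved too, from 18.2% to 6.75% and 11.6%. At 120 h, 2 were called, against 4 with the control level covariate and 1 each with the beta-actin covariate, a common median or only the groups compared. Of all genes 2.02% were called at 120 h, against 5.02%, 1.42%, 1.06% and 1.31% in that order. Without the narrow arrays 2 were called at 120 h, Cldn2 and Itga8, both higher, and neither Cldn12 nor Cldn14. Of all genes 1.44% were called in that fit. The difference between times, 5 genes, became 1 with the beta-actin covariate and 10 with quantile normalization. For all genes the share went from 14.3% to 3.26% and 16.4%. With 1 rat left out the counts ran from 7 to 14 at 24 h, 1 to 2 at 120 h, 2 to 12 for the difference and 0 to 1 between vehicle groups. The fewest at 24 h, 7, came without ANIT replicate 6, where 13.6% of all genes were called. For the difference, 12 came without vehicle replicate 1 of 24 h and 8 without ANIT replicate 1 of 120 h. Of all genes 23.4% and 16.9% were called in those fits. There were 3 without vehicle replicate 2 or ANIT replicate 6 of 24 h or vehicle replicate 3 or 4 of 120 h. There were 2 without vehicle replicate 3 or 4 or ANIT replicate 1 of 24 h or ANIT replicate 6 of 120 h. In these fits with 3 or 2 calls, 10.6% to 13.5% of all genes were called. At 120 h, 1 came without any 1 of the 8 rats named for Cldn14. Over all genes at 24 h, 70.9% of calls were higher, against 47.9% with the control level, 50.9% with beta-actin, 54.5% with quantile normalization, 81.2% with a common median and 52.8% without the narrow arrays. At 120 h, 25.4% were higher, against 37.5% with the control level, 38.7% with beta-actin, 40.9% with quantile normalization and 73.2% without the narrow arrays, and for the difference 23.3%, against 47%, 44.1%, 44.5% and 60.6% in that order and 12.1% with a common median, which moved the median of all genes there to -0.13. The cause of these shifts was not tested. No paired analysis applied, because each rat gave 1 array at 1 time and the labels give no pairing. Replicate numbers were given to rats by accession order alone. Signal over background limits the 28 members that stayed under 5.43 in every group. It also bears on Gja5, which passed 5.43 only in ANIT rats at 24 h (group mean 5.49). The same holds for Itga8, which passed it only in ANIT rats at 120 h (5.93).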
